A study of Arabidopsis thaliana with 18 samples.

Results

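AT1G51830 and AT1G51840 are 2 genes that lie side by side on chromosome 1 of Arabidopsis thaliana, in a stretch of the genome that holds a row of related receptor kinase genes. Both were chosen by name, as the genes annotated to the probe sets 246375_at and 246374_at, and they are 2 of 13286 genes with a probe set of their own among 22746 tested probe sets. The choice was made with their levels in these genotypes known, so their levels are described here without a test. Roots were measured on 18 Affymetrix arrays from plants grown in vitro on 10 mM NH4NO3 for 8 days.

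There were 6 genotypes with 3 arrays each. The 5 mutant lines carry changes in NRT1.1, which takes up nitrate in roots and also senses it. They were chl1-5 (known to carry a deletion), chl1-9 (known to carry a point mutation), chl1-12 (whose lesion the labels do not give), T101A (the threonine T101 replaced so that it cannot be phosphorylated) and T101D (the same residue replaced by one that mimics phosphorylation). The wild type was col, the Columbia accession. All 6 genotypes received the same nitrogen supply, no other treatment is given, and the labels do not state the background that carries the T101 forms. The labels do not say that the arrays of a genotype came from separate cultures, so the spread between them may be technical. The 5 comparisons with the wild type share the same 3 col arrays.

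Receptor kinases of this family span the plasma membrane. Outside the cell they carry a malectin-like domain and leucine-rich repeats, and inside it a kinase domain that passes a signal on. Relatives in the same row of genes are known for roles in responses to microbes and to salt, and the wider malectin-like group includes FERONIA, the receptor of RALF peptides that acts in cell expansion and root hair growth. The tables used here list the pair by locus code alone, with no product description, so the name receptor kinase rests on the family known for this stretch of the chromosome. No gene was listed between AT1G51830 and AT1G51840 in RefSeq (assembly TAIR10.1), and 1 probe set named each of them.

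AT1G51830 was higher in every array of the 5 mutant lines than in every col array. Its intensity, in scaled linear units, was 2393, 2338 and 2589.8 in chl1-5. It was 2174, 2322 and 2174 in chl1-9, and 2265, 2415 and 2296 in chl1-12. T101A gave 2702, 2461 and 2979, T101D gave 2548, 2295 and 2367, and col gave 1693, 1587 and 1472. The 15 mutant arrays therefore lay between 2174 and 2979, and the lowest of them was 1.28 times the highest col array. T101A had the highest single array and the widest spread of the lines.

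Means of AT1G51830 were 2440.2 ± 132 in chl1-5, 2223 ± 85 in chl1-9, 2325 ± 79 in chl1-12, 2714 ± 259 for T101A and 2404 ± 130.5 for T101D, against 1584 ± 111 in col (SD, n = 3 each). On the scale of log2(intensity + 16), the differences from col were 0.62 in chl1-5, 0.49 in chl1-9 and 0.55 in chl1-12, and they were 0.77 for T101A and 0.60 for T101D, each with an SE of 0.09 from limma. As ratios of means these were 1.54, 1.404, 1.47, 1.71 and 1.52. The differences kept their sign and moved by less than the spread between arrays in all 16 alternatives run for each line.

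AT1G51840 had a higher mean in each of the 5 lines than in col, with more spread between arrays. Its intensity was 167, 186 and 159 in chl1-5, 93.2, 154 and 189 in chl1-9, and 159, 197 and 165 in chl1-12. T101A gave 213, 158 and 210.1, T101D gave 189, 184 and 192, and col gave 73.9, 103 and 59.4. In 14 of the 15 mutant arrays the value was above the highest col array. The exception was chl1-9 replicate 1, at 93.2, which lay inside the range of col.

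Means of AT1G51840 were 171 ± 14 in chl1-5, 145 ± 48 in chl1-9, 174 ± 21 in chl1-12, 194 ± 31 for T101A and 188 ± 4 for T101D, against 78.7 ± 22.2 in col (SD, n = 3 each). The log2 differences from col were 1.001 in chl1-5, 0.75 in chl1-9 and 1.02 in chl1-12, and they were 1.16 for T101A and 1.13 for T101D, each with an SE of 0.20. The ratios of means were 2.17, 1.85, 2.21, 2.46 and 2.39, larger than the log2 differences imply because the offset of 16 understates the change of a dim probe set. With 1 array of the comparison left out, the difference in chl1-9 lay between 0.55 and 1.004.

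**Figure D1:**
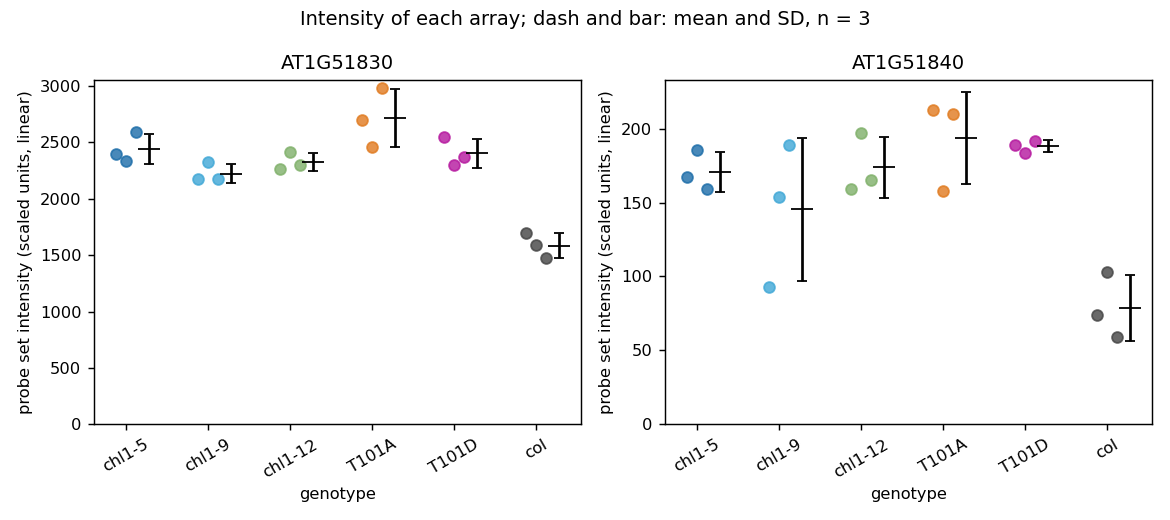
Probe set intensity (linear, scaled units) of AT1G51830 (left) and AT1G51840 (right) in each array, with the 5 mutant lines to the left of col; points are arrays, and the dash and bar beside them are the mean and SD of 3 arrays. All 15 mutant arrays of AT1G51830 lie above the 3 col arrays, while chl1-9 replicate 1, at 93.2, falls inside the col range for AT1G51840.

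The arrays of a line did not overlap with those of col in 5 of 5 lines for AT1G51830 and in 4 of 5 lines for AT1G51840. Over all tested probe sets, the share whose 3 mutant arrays were all above the 3 col arrays was 8.85% in chl1-5, 9.25% in chl1-9, 7.13% in chl1-12, 9.66% for T101A and 6.81% for T101D. All 15 mutant arrays were above all col arrays for 335 probe sets (1.47%), AT1G51830 among them. The pair was chosen with these contrasts known, so these shares are given as background only.

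For both genes the means of the mutant lines were closer to each other than to the mean of col. The highest line mean was 1.22 times the lowest for AT1G51830 and 1.33 times the lowest for AT1G51840. For AT1G51830 the order of mean log2 levels was T101A, chl1-5, T101D, chl1-12, chl1-9 and col. T101A stood 0.15 above chl1-5, against a pooled SD of 0.11, and chl1-12 stood 0.06 above chl1-9, against 0.05, but the arrays overlapped in both cases. The steps between chl1-5, T101D and chl1-12 were smaller than their spread. The step between chl1-9 and col, 0.49 against a pooled SD of 0.08, was the only step of this order without overlap. Some lines farther apart in the order did separate. All T101A arrays (2461 to 2979) were above all chl1-9 arrays (2174 to 2322) and all chl1-12 arrays (2265 to 2415). All chl1-5 arrays (2338 to 2590) were also above all chl1-9 arrays. The other pairs of lines overlapped, and differences between these lines were not tested.

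For AT1G51840 the order was T101A, T101D, chl1-12, chl1-5, chl1-9 and col. None of the steps among the 5 lines exceeded the spread of the arrays. The step between chl1-9 and col was 0.75 against a pooled SD of 0.40, with overlap. T101A also had the highest mean of both genes, and chl1-9 the lowest of the mutant lines.

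The 2 phosphorylation forms were set against each other directly. AT1G51830 averaged 2714 ± 259 in T101A and 2404 ± 130.5 in T101D (SD, n = 3 each), a log2 difference of 0.17 ± 0.09 (SE), and 2 of the 3 T101A arrays were above all T101D arrays. AT1G51840 averaged 194 ± 31 in T101A and 188 ± 4 in T101D, a difference of 0.03 ± 0.20. The second difference ranged from -0.04 to 0.16 when 1 array was left out. In this contrast 0.0352% of all probe sets were called, that is, passed a limma adjusted p under 0.05.

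The log2 difference from col was larger for AT1G51840 than for AT1G51830 in each of the 5 lines, by 0.26 in chl1-9 up to 0.53 in T101D. The SE of each difference was 0.20 for AT1G51840 and 0.09 for AT1G51830. All 5 lines were set against the same 3 col arrays, so they do not repeat the result, and the gap was not tested. Levels of different probe sets cannot be set against each other, so no statement on which gene has more transcript is possible. Across the 18 arrays the log2 levels of the 2 genes had a Pearson correlation of 0.87, which rests in part on the low col arrays. It was 0.52 over the 15 mutant arrays and 0.34 for deviations from the genotype means. These values describe arrays that share genotypes and scaling. Probe sequences were not used here, and cross-hybridisation, which is possible between related tandem genes, was not tested.

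The receptor kinase genes around the pair were tested against col. Of 11 other kinase genes listed for this stretch (AT1G51790 to AT1G51910), 8 had a probe set, and 0 of 8 were called in any of the 5 mutant lines, with 1 or 2 per line at an unadjusted p under 0.05 in limma. Over all probe sets 2.18% were called in chl1-5, 3.39% in chl1-9, 1.5% in chl1-12, while T101A had 2.23% and T101D had 0.255%, in either direction, so a count of 0 among 8 genes does not set the row apart. An unadjusted p under 0.05 was reached by 3071 of 22746 probe sets in chl1-5, 3535 in chl1-9 and 2515 in chl1-12. It was reached by 3648 in T101A and 2420 in T101D, so 1 or 2 of 8 does not set the row apart either. AT1G51850, the next gene after AT1G51840 and known as a stress-induced receptor kinase, had the lowest adjusted p of the 8, in chl1-5. It averaged 1093 ± 100 in chl1-5, 1040.03 ± 77 in chl1-9, 1044 ± 56 in chl1-12, 1024 ± 108 for T101A and 878 ± 147 for T101D, against 804 ± 29 in col (SD, n = 3 each). Its log2 difference was 0.43 ± 0.12 (SE) in chl1-5 (limma adjusted p = 0.0819) and 0.11 in T101D (limma adjusted p = 0.80). Without a call, it was 0.36 in chl1-9, 0.37 in chl1-12 and 0.34 in T101A. All AT1G51850 arrays of chl1-5, chl1-9, chl1-12 and T101A were above all col arrays, while those of T101D overlapped with col.

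AT1G51860 was at 812 ± 57 in chl1-5 and 809 ± 123 in T101D, against 649.6 ± 22.4 in col, and the limma adjusted p values were 0.30 and 0.43. AT1G51790 and AT1G51890 differed from col by between -0.09 and 0.21 in the 5 lines. AT1G51805, AT1G51810, AT1G51820 and AT1G51910 were dim, with no array above 67.6, so a change in them could be seen only if it was large. The median difference of the 8 genes was between 0.09 and 0.15 over the 5 lines, against -0.03 to -0.00048 over all probe sets. All arrays of the line were above all col arrays for 2 of the 8 in chl1-5, 3 in chl1-9 and 2 in chl1-12. It was 3 in T101A and 1 in T101D. The shares over all probe sets were 8.85%, 9.25%, 7.13%, 9.66% and 6.81% in the same order.

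**Figure D2:**
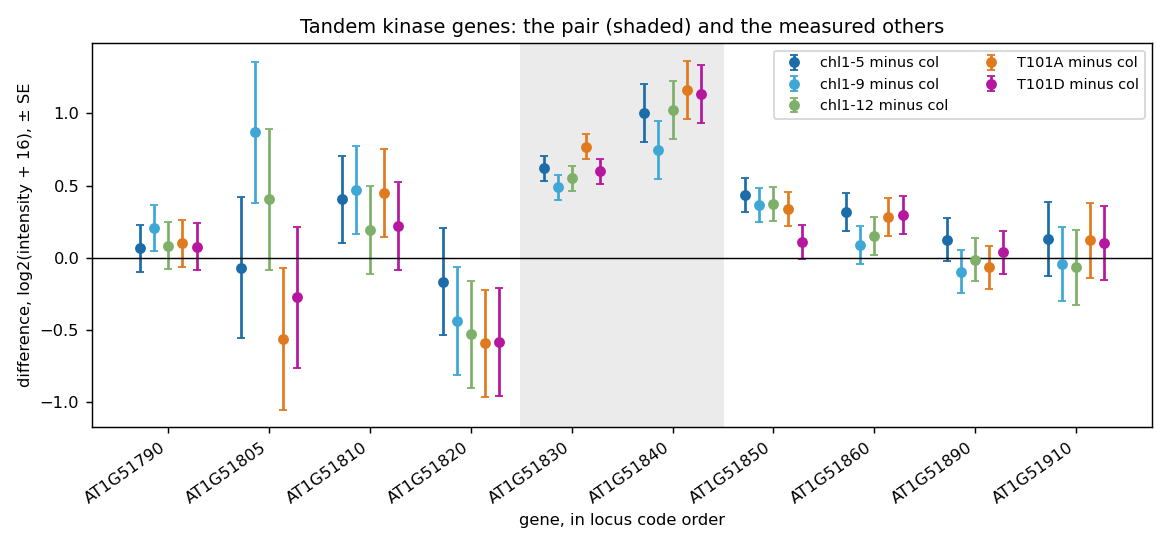
Log2 difference from col, with its SE from limma, for the pair (shaded) and the 8 other measured kinase genes of the same row, in locus code order; colours are the 5 mutant lines. AT1G51830 and AT1G51840 lie between 0.49 and 1.16, AT1G51850 lies between 0.11 and 0.43, and the 8 genes together span -0.59 to 0.87, where the highest value is that of the dim AT1G51805 in chl1-9.

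A wider window was also followed, the 15 measured genes on each side of the pair, from AT1G51540 to AT1G52050. Of these 30 genes 0 were called in chl1-5, chl1-9, chl1-12 and T101D, with 3 to 5 at an unadjusted p under 0.05. Over all 22746 probe sets 2.18%, 3.39%, 1.5% and 0.255% were called in that order, so 0 of 30 does not set them apart. An unadjusted p under 0.05 was reached by 3071, 3535, 2515 and 2420 probe sets, so 3 to 5 of 30 is near the background. For T101A the background was 2.23% called and 3648 probe sets at that unadjusted p. In T101A 9 had an unadjusted p under 0.05 and 1 was called: AT1G52050 fell to 1129 ± 89, against 1581 ± 151 in col (-0.48 on the log2 scale, limma adjusted p = 0.0333). That call was lost, leaving 0, without T101A replicate 1 or 3 or any of the col replicates.

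Median differences of the 30 neighbours lay between -0.06 and -0.01, close to those of all probe sets. AT1G51550, farther out in the window, was between 0.28 and 0.37 in all 5 lines with limma adjusted p of 0.112 to 0.346. Without a call, AT1G51805 was at 0.87 in chl1-9, and AT1G51920 and AT1G51750 were at -0.97 and -1.20 in T101A.

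**Figure D3:**
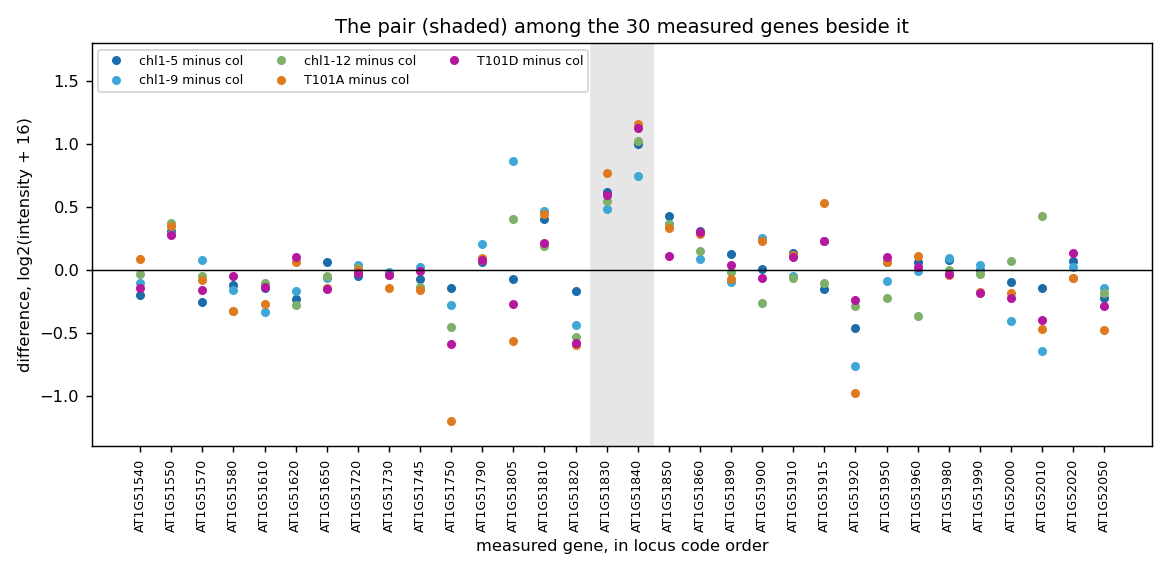
Log2 difference from col of AT1G51830 and AT1G51840 (shaded) and of the 30 measured genes beside them in locus code order, 1 colour per mutant line. The pair has all 5 lines between 0.49 and 1.16, and the median of the neighbours lies between -0.06 and -0.01.

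Receptor kinases of the same family elsewhere in the genome changed in some lines. Together with the tandem genes and the FERONIA group, 46 of 61 listed genes were measured, without the pair itself. Of these, 4 were called higher and 0 lower in chl1-5, and 6 higher and 1 lower in chl1-9. In chl1-12 2 were called higher and 1 lower, and in T101A 4 higher and 0 lower. In T101D 0 were called in either direction, and 6 had an unadjusted p under 0.05 in limma. As shares called these were 8.7%, 15.2%, 6.52%, 8.7% and 0%, beside the background of 2.18%, 3.39%, 1.5%, 2.23% and 0.255% given above. At an unadjusted p under 0.05 the background in T101D was 2420 of 22746 probe sets, so 6 of 46 is near it. The list was chosen with earlier results known. The median difference was 0.09, 0.12, -0.01, 0.07 and 0.10 in the same order.

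These counts were small and moved with single arrays. Without col replicate 2 or 3 the count in chl1-5 was 2. In chl1-12 it was 1 without col replicate 1 or 2 or chl1-12 replicate 1 or 2, in T101A it was 1 or 2 without any 1 of the 6 arrays, and in T101D it was 1 without T101D replicate 2.

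AT1G07550, a leucine-rich repeat receptor kinase gene, rose in 4 lines. It averaged 138 ± 7 in chl1-5, 173 ± 7 in chl1-9, 139 ± 8 in chl1-12 and 150.0 ± 18.1 in T101A, against 59.8 ± 3.6 in col (SD, n = 3 each). The log2 differences were 1.02, 1.32, 1.03 and 1.13, with limma adjusted p between 1.9e-05 and 0.000289, and each of these calls held in all 15 alternatives run for it. In T101D it was at 92.8 ± 19.0, with a difference of 0.51 and an adjusted p of 0.0872.

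AT1G05700 rose by 0.93 in chl1-5, 0.77 in chl1-9 and 0.51 in chl1-12 (limma adjusted p of 0.000561, 0.00159 and 0.042), and its last call was lost in 8 of 16 alternatives. In T101D it averaged 189 ± 39, against 186 ± 19 in col. AT1G07560 rose by 0.65 in chl1-5, 0.79 in chl1-9 and 0.63 in T101A, and its value in T101D was 0.49 with a limma adjusted p of 0.196. AT4G20450 rose by 0.73 in chl1-5 and 0.90 in chl1-9, AT2G28960 rose by 0.72 in chl1-9, and AT2G28990 rose by 0.61 in T101A. Several of these calls were lost in some alternatives, which include both other processing and arrays left out. Those of AT1G07560 in chl1-5 and T101A were lost in 5 and 6 of 16 alternatives. That of AT4G20450 in chl1-5 was lost in 7 of 15, that of AT2G28960 in 7 of 16 and that of AT2G28990 in 5 of 15. Each of these was lost without col replicate 3. Whether T101D differs from the other lines in these genes was tested only against T101A, where 0 of 46 passed and 4 had an unadjusted p under 0.05 in limma. Over all 22746 probe sets 0.0352% passed there and 1486 had an unadjusted p under 0.05, so neither count sets the family apart.

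Of 12 measured genes of the FERONIA group, FERONIA itself (FER) rose by 0.31 in chl1-9, to 2880 ± 173 against 2321 ± 144 in col (limma adjusted p = 0.0469), a call lost in 8 of 16 alternatives. AT5G39020 rose by 0.83 in T101A (adjusted p = 0.0474), a call lost in 8 of 15. AT5G39030 fell to 10.7 ± 8.7 in chl1-9 and 10.5 ± 5.7 in chl1-12, against 48.9 ± 0.8 in col, and the limma adjusted p values were 0.011 and 0.0207. Without a call, it was also at 17.8 ± 14.9 in chl1-5 and 22.9 ± 3.7 in T101A, while T101D had 50.2 ± 0.6. This probe set is dim, and its means in chl1-9 and chl1-12 lay under the offset of 16. Over the alternatives its log2 difference ranged from -2.34 to -0.60 in chl1-9 and from -2.23 to -0.60 in chl1-12. The call of AT5G39030 in chl1-12 was lost in 6 of 14 alternatives.

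Genes of immune signalling, a process in which relatives of the pair are known to act, were sparsely measured. Of 19 listed receptors and partners 2 had a probe set, the receptor gene EFR and the kinase gene BIK1, and 0 of 2 were called, with at most 1 per line at an unadjusted p under 0.05 in limma. With 0.255% to 3.39% of all probe sets called, 0 of 2 says nothing particular about them. Of 21 listed immune marker genes 6 were measured. The transcription factor genes WRKY22 and WRKY53 and the defensin gene PDF1.2 were not called in any line. The other 3, the berberine-bridge-like oxidoreductase genes AT1G26380, AT1G26390 and AT1G26410, fell in chl1-5, chl1-9, chl1-12 and T101A. Their differences in T101D, where they were not called, were -0.49, -0.94 and -0.62, and 0 of the 6 marker genes had an unadjusted p under 0.05 in limma there. Of 18 listed genes of nitrate transport, assimilation and signalling, 9 were measured. Of these 1 rose and 6 fell in chl1-5, 2 rose and 4 fell in chl1-9, 1 rose and 5 fell in chl1-12, and 1 rose and 1 fell in T101A. In T101D 0 of 9 were called, with 4 at an unadjusted p under 0.05 in limma, which 2420 of all 22746 probe sets reached in that line. The background was 2.18%, 3.39%, 1.5%, 2.23% and 0.255% in the 5 lines in this order. Of these 21 calls 14 were lost in at least 1 alternative and 6 in 4 or more, up to 11 of 16.

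Markers of root hair cells were followed beside the pair. Root hairs are outgrowths of single epidermal cells, and their markers used here encode peroxidases, expansins and other enzymes and proteins of the cell wall. Of 18 listed markers 7 were measured, and 4 rose in chl1-5, 2 in chl1-9 and 2 in chl1-12. In T101A 5 rose and in T101D 1 rose, and 0 fell in any line, so most of the 7 did not pass in chl1-9, chl1-12 and T101D. The background over all probe sets was 2.18%, 3.39%, 1.5%, 2.23% and 0.255% in the same order. Of these 14 calls 13 were lost in at least 1 alternative and 8 in 4 or more, up to 7 of 16 for AT3G54580 in T101A. The median difference was 0.69, 0.33, 0.59, 0.66 and 0.56 in that order, beside -0.03 to -0.00048 over all probe sets. The peroxidase gene AT3G49960 was called in all 5 lines. It averaged 1292 ± 139 in chl1-5, 1114 ± 23 in chl1-9, 1267 ± 195 in chl1-12, 1583 ± 182 for T101A and 1197 ± 135 for T101D, against 601 ± 101.3 in col (SD, n = 3 each; limma adjusted p between 0.000157 and 0.0121). Its call in T101D was lost without T101D replicate 1 or 3 or col replicate 3.

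The summed intensity of the 7 markers was 9076 to 10879 in chl1-5, 6928 to 9135 in chl1-9, 8484 to 9663 in chl1-12, 9795 to 10911 in T101A and 8686 to 9937 in T101D, against 5493 to 6857 in col. None of the 7 had a mean under 16 in any genotype. The array with the lowest AT1G51840 level of all mutant arrays, chl1-9 replicate 1, was also the mutant array with the lowest sum, 6928. AT1G51830 did not single out that array: it was at 2174 there and at 2174 in chl1-9 replicate 3, where the sum was 8484. Deviations from the genotype means of the marker average correlated with those of AT1G51830 at 0.50 and with those of AT1G51840 at 0.61 (Pearson, 18 arrays that share scaling). In bulk roots a larger share of a cell type and more RNA per cell cannot be told apart, and the part of root hair cells in the levels of the pair was not tested.

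**Figure D4:**
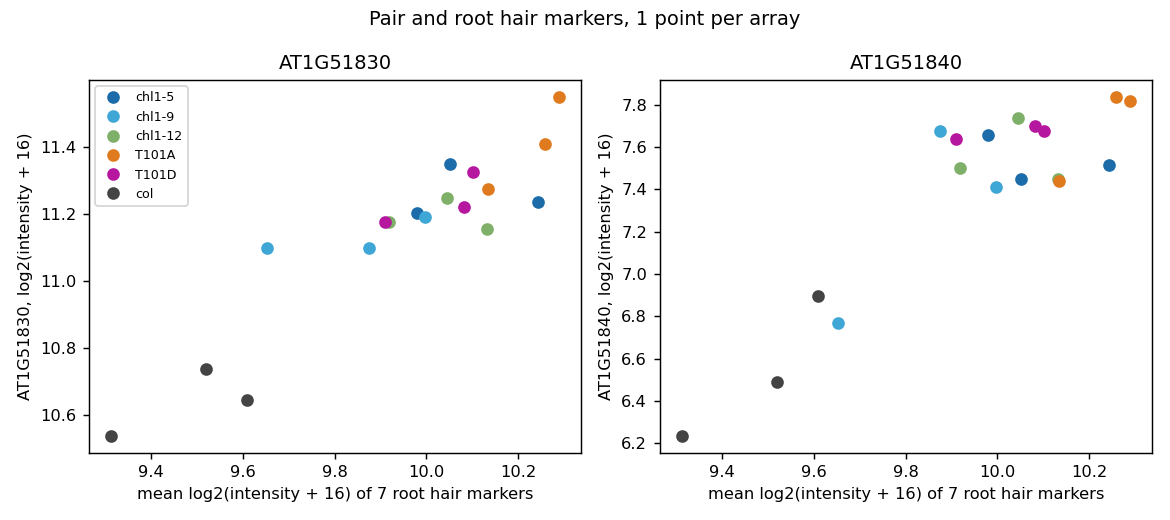
Log2(intensity + 16) of AT1G51830 (left) and AT1G51840 (right) against the mean of 7 root hair markers on the same scale, 1 point per array, coloured by genotype. The col arrays lie at the lower left and T101A reaches the upper right. The array chl1-9 replicate 1 lies near col for the markers and for AT1G51840, but above col for AT1G51830.

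The genes whose pattern was most like each member were looked up among all other probe sets of 1 gene, by Pearson correlation of log2 levels over the 18 arrays. For AT1G51830 they were the root hair peroxidase gene AT3G49960 (0.965), AT1G60610 (0.926), the aspartyl protease gene AT1G66180 (0.919), the PR-1-like gene AT4G33730 (0.916) and AT1G27200 (0.911). Over the 15 mutant arrays alone these values were 0.825, 0.809, 0.548, 0.746 and 0.728. AT1G51840 came 18th in this ranking. AT1G60610 averaged 1139 ± 95 in chl1-5, 874 ± 74 in chl1-9, 1042 ± 100 in chl1-12, 1244 ± 146 for T101A and 1159 ± 144 for T101D, against 642 ± 99 in col.

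For AT1G51840 the most similar genes were AT3G12540 (0.90), AT4G33730 (0.892), AT3G01730 (0.89), the protein kinase gene AT3G07070 (0.886) and the root hair peroxidase gene AT4G26010 (0.884). Over the 15 mutant arrays these values were 0.799, 0.669, 0.792, 0.657 and 0.68. AT1G51830 came 7th. AT4G33730 was thus among the 5 closest genes of both members, at 599 ± 53 in chl1-5, 445 ± 56 in chl1-9, 525 ± 78 in chl1-12, 683 ± 104 for T101A and 595 ± 52 for T101D, against 307 ± 58 in col.

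At the opposite end were genes with a higher mean in col than in each of the 5 lines, by widely different amounts. For AT1G51830 they were the jacalin lectin gene AT5G35940 (-0.92), AT2G15260 (-0.912), QQS (-0.89), AT3G02120 (-0.878) and AT4G25550 (-0.854). For AT1G51840 they were QQS (-0.855), AT2G15260 (-0.844), AT2G34820 (-0.843), AT4G25550 (-0.84) and AT3G44050 (-0.83). QQS, which is known to shift how carbon and nitrogen are shared between starch and protein, averaged 57.7 ± 10.8 in chl1-5, 40.1 ± 2.7 in chl1-9, 53.6 ± 36.2 in chl1-12, 33.2 ± 9.2 for T101A and 33.6 ± 9.6 for T101D, against 818 ± 73 in col. Over the 15 mutant arrays its correlation was -0.211 with AT1G51830 and -0.359 with AT1G51840. Others kept more of theirs there: AT3G02120 was at -0.721 with AT1G51830, and AT4G25550 at -0.701 with AT1G51830 and -0.721 with AT1G51840. AT4G25550 averaged 955 to 1075 in the lines, against 1209 in col. AT2G34820 was near background throughout, with no genotype mean above 3.56.

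Median intensity was 184 to 192 in the 15 mutant arrays and 194 to 197 in col, so every mutant array was below every col array, opposite to the pair. With arrays centred on their medians the differences of the pair were slightly larger, 0.52 to 0.81 for AT1G51830 and 0.78 to 1.20 for AT1G51840. Correlations across probe sets were 0.978 to 0.989 within genotypes and 0.975 to 0.989 between them. As a sign of RNA quality, the GAPDH control signal at the 5' end was divided by that at the 3' end. With the older control probe sets it was 0.729 to 0.981 in the 15 mutant arrays and 0.740 to 0.797 in col, and 11 of the 15 were above the highest col array. These included all arrays of chl1-5 (0.806 to 0.923) and of T101A (0.845 to 0.944), so this ratio ran higher beside the pair in those lines, and its part in the levels of the pair was not tested. With the newer control probe sets it was 0.705 to 1.13 in the mutants and 0.957 to 1.09 in col, with 2 of the 15 above all col arrays. Among other cell type markers, the green tissue gene RCA was the 1 of 16 measured, lower at -1.11 in T101D and -0.10 in chl1-5 without a call. A root cap marker, AT3G10320, was the 1 of 6 measured and lay between 0.18 and 0.64 above col without a call, while 0 of 9 endodermis and 0 of 9 stele markers had a named probe set. At an unadjusted p under 0.05 in limma, RCA passed in T101A and T101D and AT3G10320 in chl1-5, chl1-12, T101A and T101D.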

How the data were processed

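The authors deposited 1 table of intensity values on a linear scale, with 22810 probe sets and 18 arrays. How probes were summarised and background was removed is not given in the sources used here. In the values, all arrays share a mean of 500 once 2% is trimmed at each end, so differences are relative to that mean. On each array 16.5% to 19.5% of probe sets were under 16. Biotin-labelled RNA was made with a 3' IVT kit, per the labels.

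From the deposited intensities, 64 control probe sets were left out and log2(value + 16) was fitted with limma 3.58.1 (R 4.3.3), 1 coefficient per genotype over all 18 arrays. Calls were made at a Benjamini-Hochberg adjusted p under 0.05 over 22746 probe sets in each of 6 comparisons. As a check of the code, the fit was run on simulated data with independent, normally distributed noise and known changes added. Effects shared between arrays were not simulated, so that run does not bear on the calls made here. Tables and plots used Python 3.11.15, numpy 2.4.6, pandas 2.3.3 and matplotlib 3.10.9. The median SD between arrays of a genotype was 0.20 (log2), and the number of arrays limits the precision.

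Groups and replicate numbers came from the sample titles. Of the probe sets, 13436 were matched to 1 gene of RefSeq assembly TAIR10.1 and 503 listed several genes. Of 174 genes in the 11 lists, 72 were measured. A planned list by RefSeq product description was not made, since the table used here holds no descriptions. Members and lists were chosen with earlier results of these data known. Named were the pair, list members called in a comparison, the tandem kinases, the genes beside the pair, and the 5 most and 5 least similar genes of each member; called nitrate genes were only counted. Alternatives were an offset of 1 or 64, 2 filters on dim probe sets, quantile normalization, median centring, a fit of the 6 arrays compared, an intensity trend, array weights, the replicate number as a block, and each array left out. Sequences are not shown.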

Additional observations from a re-analysis of the deposited data

How the results depend on the processing

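The differences of AT1G51830 and AT1G51840 from col kept their sign in every alternative run. AT1G51830 moved by less than the spread between arrays throughout, with ranges over single arrays left out of 0.57 to 0.67 in chl1-5, 0.44 to 0.54 in chl1-9, 0.50 to 0.60 in chl1-12, 0.70 to 0.84 in T101A, 0.55 to 0.65 in T101D and 0.10 to 0.24 for T101A minus T101D. With an offset of 64, which damps dim probe sets by construction, AT1G51840 was at 0.73 in chl1-5 and 0.74 in chl1-12, and at 0.86 and 0.83 for T101A and T101D. AT1G51840 has no value above the median level, since it lies below it. Over single arrays left out it ranged from 0.85 to 1.18, 0.55 to 1.004, 0.87 to 1.20, 1.01 to 1.34 and 0.98 to 1.31 in chl1-5, chl1-9, chl1-12, T101A and T101D.

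Of the 46 family genes, a fit of the 6 arrays compared (fewer samples) called 2 in chl1-5, 1 in chl1-9 and 1 in T101A. In chl1-12 1 was called with an offset of 1 and 1 above the median level, where chl1-9 had 4. In T101D quantile normalization and median centring each called 1. Leaving out arrays gave 2 to 4, 5 to 6, 1 to 2, 1 to 2 and 0 to 1 calls in the 5 lines in the order above, and 0 to 1 for T101A minus T101D. Of the 30 neighbours, 1 was called in chl1-5 with an offset of 64, above the median level, with median centring, with the trend and with array weights, and 1 in chl1-12 with array weights. In T101A 2 were called above the lowest quartile, 2 with array weights and 0 with median centring, and 0 to 1 with an array left out. The causes were not tested.

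With the replicate number as a block, 2 family genes were called in T101D, 1 in T101A minus T101D, and 3 neighbours in T101A. Same-numbered arrays deviated together weakly but always in the same direction (r of 0.01 to 0.14). Against col, 4 of 6 arrays correlated best with their own number in chl1-5, 4 in chl1-9 and 6 in chl1-12. It was 3 in T101A, 4 in T101D and 6 in T101A minus T101D. The main fit did not take the numbers to pair the samples, and an effect shared by same-numbered arrays was not tested.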
